A study of Mus musculus with 4 samples.

Results

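Aminoacyl-tRNA synthetases, the enzymes that load each tRNA with its amino acid, were followed in mouse melanoma cells with reduced lamin A/C. The set holds 38 genes of the 24421 in the count table. It was chosen by name and function: 20 genes encode cytosolic synthetase subunits, 16 encode their mitochondrial counterparts, and Aimp1 and Aimp2 encode scaffold proteins of the multi-synthetase complex. Aimp2 carries the ending of the mitochondrial names but belongs to the scaffold. The rule used no measured value, but the set was picked with earlier results of these data known.

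B16F10 is a metastatic melanoma line from C57BL/6 mice. Cells of both groups went through lentiviral transduction and puromycin selection, and were kept in DMEM with serum. The shControl cells carried the vector without a hairpin against Lmna, and the shLmna cells a hairpin aimed at exon 8 of this gene, the source of lamin A/C in the nuclear lamina. Each group is a stably selected population with 1 construct, sequenced as 2 libraries, and no source used here says whether the 2 libraries came from separate cultures or transductions. The p-values below therefore measure the spread between libraries, which may be technical. Transcripts were counted at their 3′ ends by bulk MARS-seq, a method that reads only the end next to the poly(A) tail.

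Library totals ran from 2494880 to 3808843 counts. Lmna, the targeted gene, had 2826 and 2684 counts in shControl 1 and 2 and 331 and 480 in shLmna 1 and 2, a log2 fold change of -2.61 with an adjusted p of 7.93e-06 in the edgeR quasi-likelihood test. Its level went with the label of every library. All melanocyte markers examined other than Tyr, which had 1 to 7 counts per library, were present in every library: Pmel, Mlana, Tyrp1, Dct, Mitf and Sox10. Summed over all 7, they held 20117 to 20891 CPM (counts scaled to a common library size) in shControl and 21156 to 24602 CPM in shLmna. The markers did not move together: Pmel and Mlana rose, with log2 fold changes of 0.41 and 0.51, Sox10 fell by 0.89 on that scale (edgeR adjusted p 0.00161), and Mitf was at -0.37 (edgeR adjusted p 0.0804). Dct was at -0.02 and Tyrp1 at -0.14, with Tyrp1 at 2384 CPM in shLmna 1 and 4451 CPM in shLmna 2. The 8 markers of leukocytes, endothelium, fibroblasts and epithelium summed to 21.4 to 23.8 CPM in shControl and 11.5 to 15.3 CPM in shLmna. Ptprc, Cdh5, Dcn and Epcam were at 0 counts in all 4 libraries. Cd68 held most of these sums, with 53 and 54 counts in shControl 1 and 2 and 27 and 44 in shLmna 1 and 2. In the same order, Krt8 had 16, 9, 0 and 1 counts, Col1a1 6, 13, 2 and 10, and Pecam1 2, 4, 0 and 1. In a bulk sample, fewer cells expressing a gene and less of its RNA per cell cannot be told apart.

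A synthetase recognises its amino acid and the matching tRNAs, activates the amino acid with ATP and joins it to the 3′ end of the tRNA, which the ribosome then uses. The enzymes fall into classes I and II by the fold of the catalytic domain. Separate nuclear genes, mostly named with a final 2, encode enzymes that are imported into mitochondria for translation of the mitochondrial genome, while a few genes serve both compartments. The set holds no separate mitochondrial gene for glycine or lysine. Gars and Kars were grouped as cytosolic throughout, and the cytosolic sums and medians include them. In animal cells several cytosolic enzymes are held together with scaffold proteins in the multi-synthetase complex. When uncharged tRNA accumulates, the kinase GCN2 is activated and the transcription factor ATF4 is translated, and synthetase genes are among the known ATF4 targets.

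Of the 38 genes, 34 had enough counts to be tested. Most fitted changes were small: 1 gene was lower in shLmna (Yars2), 2 were higher (Farsb and Mars) and 31 passed the test in neither direction. The edgeR test was run on all 9150 genes with sufficient counts, with Benjamini-Hochberg adjustment and a threshold of 0.05, and it called 9.74% of them lower and 5.48% higher. The members' shares were 2.94% lower and 5.88% higher. With the limits of the study (a log2 fold change over 1 in size and a mean normalized count over 5) Yars2 remained as a lower call, where 5.88% of all tested genes were lower and 1.76% higher. The libraries of the 2 groups did not overlap in 18 of the 34 members, which is 52.9%, against 60.1% of all tested genes.

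The fitted changes were also narrow. A log2 fold change under 0.5 in size was found for 30 members (88.2%), compared with 71.9% of all tested genes. The 95% interval of the fold change lay within a log2 change of 1 on either side in 32 members (94.1%), against 66.0% of all tested genes. Outside these limits were Yars2 and Mars2, both mitochondrial, with mean normalized counts of 119 and 25.4. The width of an interval depends on the counts behind it. Members were not compared with genes of matched counts, so the part of count depth in these shares was not tested.

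**Figure D1:**
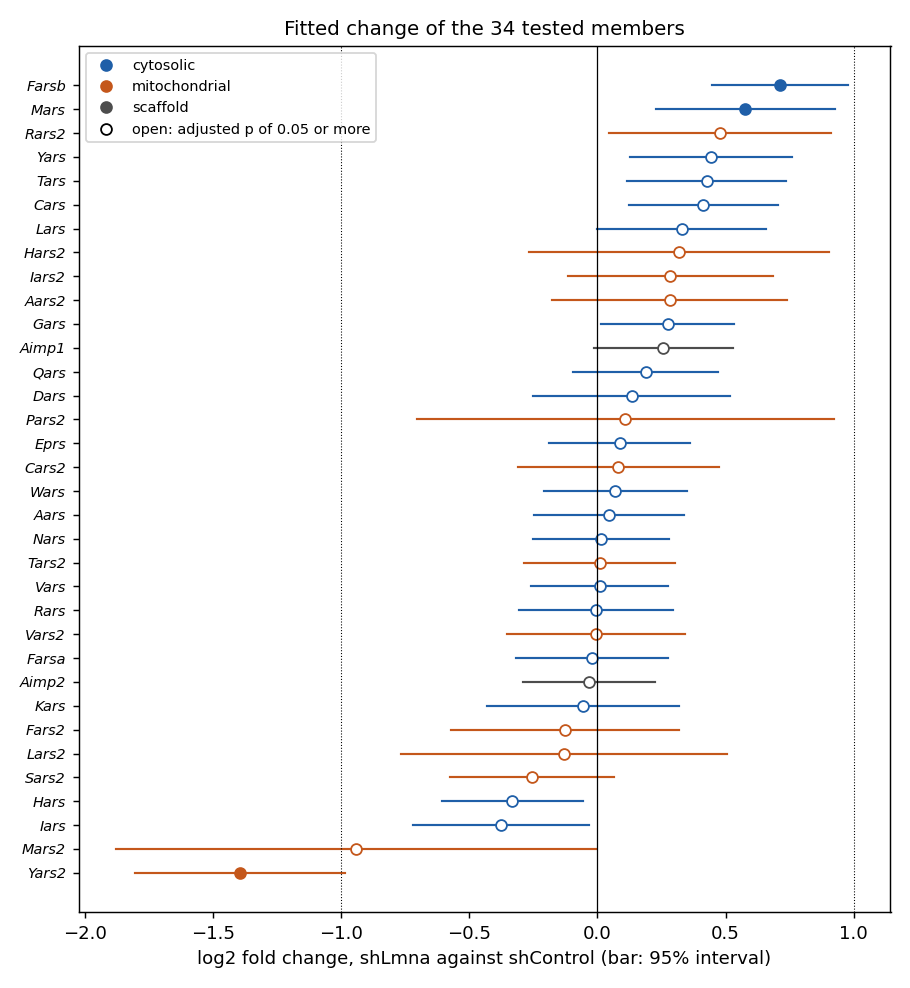
Fitted log2 fold change of the 34 tested members, shLmna against shControl, as points with 95% intervals. Filled points have an edgeR adjusted p under 0.05: Yars2 at -1.40, Mars at 0.58 and Farsb at 0.71, and dotted lines mark a log2 change of 1 on either side.

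Sequences just upstream of the transcription start are given for the 3 genes that passed the test, with the E-box (CACGTG, bound by MYC, MITF and related factors) in capitals where present. All come from RefSeq on GRCm38.p6, run 5′ to 3′ on the strand of the gene and end at the base before the start that RefSeq gives.

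Yars2, chr16:16302865-16302964, plus strand: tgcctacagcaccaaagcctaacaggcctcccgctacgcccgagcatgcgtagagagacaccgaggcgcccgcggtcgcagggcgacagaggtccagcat
Farsb, chr1:78488898-78488997, minus strand: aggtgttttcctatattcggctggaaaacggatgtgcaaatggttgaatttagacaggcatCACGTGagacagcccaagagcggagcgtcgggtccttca
Mars, chr10:127311787-127311886, minus strand: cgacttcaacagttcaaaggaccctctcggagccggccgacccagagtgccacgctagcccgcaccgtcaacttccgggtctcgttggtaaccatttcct

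The Farsb sequence held an E-box at 34 to 39 bases before the start. Neither this motif nor the next occurred in the 250 bases upstream of Yars2 or Mars. A second set shows the core of the ATF4 response element (TGATGNAA, searched on both strands, capitals here on the reverse strand), which was found upstream of the RefSeq starts of Aars, Gars and Tars. For Aars that stretch lies within the gene as GENCODE draws it, since one of its GENCODE transcripts begins earlier. The last bases of the Tars stretch also lie within its GENCODE gene, which begins at base 11399665 on the minus strand. The capitals of Tars lie just outside that gene.

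Aars, chr8:111033714-111033753, plus strand: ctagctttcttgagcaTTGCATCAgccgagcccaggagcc
Gars, chr6:55037955-55037994, plus strand: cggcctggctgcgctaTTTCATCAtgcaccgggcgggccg
Tars, chr15:11399659-11399689, minus strand: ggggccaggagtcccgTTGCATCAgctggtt

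Promoters of 29 members could be matched. The ATF4 core was present in 3 of them (10.3%) and in 3.45% of 32851 mouse promoters of the same 250 bases. The E-box occurred in Aars, Farsb and Iars, again 10.3% of the matched members, and in 6.02% of all promoters. For both motifs, members were counted as genes with the motif in any listed promoter, and the background was counted by promoter. The motifs can share only their end bases. A match describes the sequence only. Of the 3 genes with the ATF4 core, the fitted log2 fold changes were 0.05 for Aars, 0.27 for Gars and 0.43 for Tars, and none of these passed the adjusted test.

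To ask which mitochondrial synthetases changed with lamin A/C knockdown, the 16 genes were examined first. Yars2, the mitochondrial tyrosyl-tRNA synthetase, was the member with the largest change. Its level was 55.8 and 51.1 CPM in shControl 1 and 2 and 19.4 and 20.98 CPM in shLmna 1 and 2. Both shLmna libraries lay below both shControl libraries, and the gap between the groups was far wider than the gap within either. The group means were 53.4 ± 3.26 and 20.2 ± 1.13 CPM (SD, n = 2), and the log2 fold change was -1.40 (SE 0.183, 95% interval -1.81 to -0.987) with an edgeR adjusted p of 0.000864. Behind these values stood 180 and 191 raw counts in shControl, and 49 and 77 in shLmna. Yars2 made up 10.9% and 10.1% of the counts on mitochondrial synthetases in shControl and 4.04% and 4.12% in shLmna. The gene spans chr16:16302965-16309640 on the plus strand of GRCm38 in GENCODE, its counted 3′ end shares no 31-base word with another transcript, and 43.5% of that end is G or C.

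No other mitochondrial synthetase passed the test. Mars2, the mitochondrial methionyl-tRNA synthetase, was counted 30 and 44 times in shControl, 7 and 28 times in shLmna, or 9.29, 11.8, 2.77 and 7.63 CPM. Both shLmna libraries were lower than both controls, but they also differed from each other by more than the nearer one differed from shControl 1. The log2 fold change of -0.94 had a 95% interval from -1.88 to -0.00742 and an edgeR adjusted p of 0.164. Without shLmna 1 the value was -0.46, and without shLmna 2 it was -1.90.

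Rars2, the mitochondrial arginyl enzyme, had the largest positive value of the mitochondrial group, with 37.8 and 39.6 CPM in shControl and 44.3 and 62.7 CPM in shLmna. The groups did not overlap, but most of the difference came from shLmna 2, and the log2 fold change of 0.48 (SE 0.194) had an edgeR adjusted p of 0.130. Sars2, the seryl enzyme, had 72.2 and 82.5 CPM in shControl and 64.9 and 64.8 CPM in shLmna, a log2 fold change of -0.26 with an edgeR adjusted p of 0.266. Levels of Tars2 (threonyl) were 80.2 and 84.1 CPM in shControl and 81.1 and 84.2 CPM in shLmna, and those of Vars2 (valyl) were 49.9 and 58.6 against 55.0 and 53.4 CPM. For Tars2 and Vars2 the ranges of the groups overlapped.

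The remaining mitochondrial enzymes were Aars2 (alanyl), Cars2 (cysteinyl), Fars2 (phenylalanyl), Hars2 (histidyl), Iars2 (isoleucyl), Lars2 (leucyl) and Pars2 (prolyl). Their log2 fold changes ranged from -0.13 in Lars2 to 0.32 in Hars2. The value of Hars2 rested on shLmna 1, at 27.7 CPM, since shLmna 2 was at 17.7 CPM, as low as the 17.7 and 18.2 CPM of shControl. The counted end of Cars2 shares 33.8% of its 31-base words with Naxd, which overlaps it on the opposite strand, and that of Iars2 shares 9.07% with Rab3gap2. The strand setting of the counting is not given in the sources used here, so reads of these overlapping genes cannot be assigned with certainty.

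Taken over the 13 tested mitochondrial genes, the fitted change was positive in 7 and negative in 6, with a median log2 fold change of 0.01, next to -0.00107 for all tested genes. Summed levels of the 16 genes were 510 and 504 CPM in shControl and 479 and 508 CPM in shLmna. The ranges of the sums overlap.

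**Figure D2:**
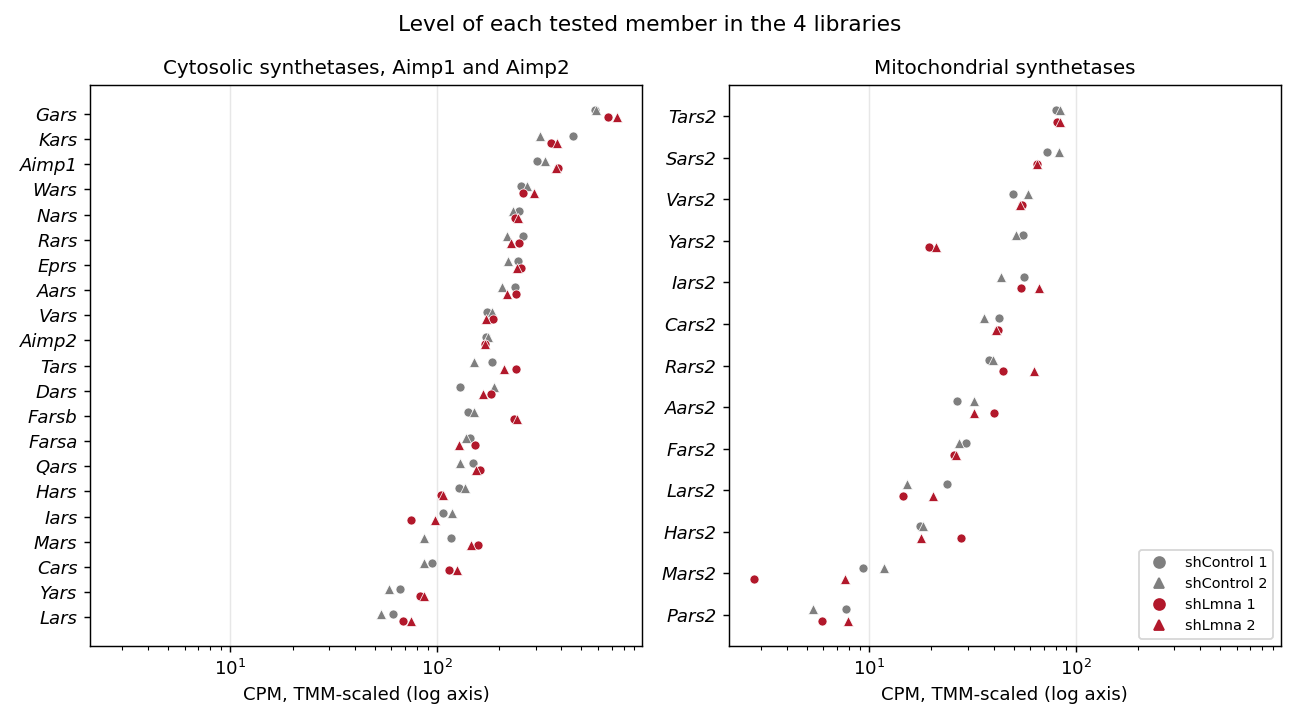
Level of each tested member in the 4 libraries, in CPM on a log axis, cytosolic and scaffold genes on the left and mitochondrial genes on the right, ordered by the shControl mean. Grey marks are shControl and red marks shLmna, with circles for library 1 and triangles for library 2. Yars2 sits at 51.1 to 55.8 CPM in shControl and at 19.4 to 20.98 CPM in shLmna.

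Most cytosolic genes were at higher levels than the mitochondrial ones. Transcripts were counted over 3′ windows of the same length, but whether counts reflect RNA level equally between genes was not tested. The counted ends of Cars2, Iars and Aimp2 also share sequence with other genes. Smaller shares of 31-base words recurred elsewhere for Iars2 (9.07%), Wars2 (7.73%), Aimp1 (6.70%), Lars2 (4.33%), Mars (3.92%), Kars (3.5%) and Vars (0.309%). The order given here is therefore one of counts. Mean levels in shControl ran from 57.3 CPM for Lars to 584 CPM for Gars among tested cytosolic genes, with a median of 159 CPM, and from 6.55 CPM for Pars2 to 82.1 CPM for Tars2 among tested mitochondrial genes, with a median of 38.7 CPM. The 4 untested genes lay below these ranges. Neighbours in this order, such as Nars (241 ± 11.4 CPM), Rars (239 ± 30.6 CPM) and Eprs (234 ± 18.6 CPM; SD, n = 2), lay within the spread of their libraries.

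Farsb, the beta subunit of cytosolic phenylalanyl-tRNA synthetase, was the cytosolic gene with the largest change. It was at 142 and 151 CPM in shControl 1 and 2 and at 235 and 245 CPM in shLmna 1 and 2. The groups did not overlap and each pair of libraries was close together. The means were 146 ± 6.27 and 239.6 ± 7.16 CPM (SD, n = 2), and the log2 fold change was 0.71 (SE 0.118, 95% interval 0.45 to 0.98) with an edgeR adjusted p of 0.00356. Without shLmna 2 the log2 fold change was 0.69 and the edgeR adjusted p was 0.0573. Farsb (chr1:78417975-78488897, minus strand) overlaps 4833412K13Rik on the same strand and Gm28995 on the opposite one, though none of the 31-base words of its counted end is shared.

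The enzyme is a tetramer of alpha and beta subunits, and the alpha subunit is encoded by Farsa. Farsa was measured at 145 and 138 CPM in shControl and at 152 and 127 CPM in shLmna. Its shLmna libraries enclosed the controls, with a log2 fold change of -0.02 (SE 0.133, 95% interval -0.32 to 0.27). On the log2 scale the ratio of Farsb to Farsa was -0.03 and 0.13 in shControl and 0.62 and 0.94 in shLmna, a difference of 0.74 in the means. No test was made of this ratio, and 2 libraries against 2 cannot give an exact permutation p below 0.333.

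Mars, the cytosolic methionyl-tRNA synthetase and a component of the multi-synthetase complex, was the other gene that rose. It was at 117 and 86.7 CPM in shControl and at 157 and 146 CPM in shLmna. Both shLmna libraries exceeded both controls, although the controls differed from each other by about as much as shControl 1 differed from the nearer shLmna library. The log2 fold change was 0.58 (SE 0.156, 95% interval 0.23 to 0.93) with an edgeR adjusted p of 0.0341. This call was lost with DESeq2 (adjusted p 0.0522), and in edgeR without shControl 2 (log2 fold change 0.37, adjusted p 0.109), without shLmna 1 (adjusted p 0.195) and without shLmna 2 (adjusted p 0.160). Mars (chr10:127296221-127311786, minus strand) meets Ddit3 at its 3′ end on the opposite strand, and 3.92% of the 31-base words of the counted end are shared with that gene. Ddit3 itself had a log2 fold change of -0.15.

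Cars (cysteinyl), Yars (tyrosyl) and Tars (threonyl) were just outside the threshold. Cars was at 94.2 and 86.2 CPM in shControl and at 115 and 125 CPM in shLmna, with an edgeR adjusted p of 0.0613. Yars went from 66.0 and 58.4 to 82.7 and 86.1 CPM, with an edgeR adjusted p of 0.0639. Tars went from 184 and 151 to 240.1 and 210.3 CPM, with an edgeR adjusted p of 0.0692. In each of these the groups did not overlap, and the log2 fold changes were 0.41, 0.44 and 0.43. They are the only members with an adjusted p between 0.05 and 0.1.

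Hars (histidyl) and Iars (isoleucyl) had the lowest values among cytosolic genes. Hars was at 128 and 137 CPM in shControl and at 104 and 106 CPM in shLmna, with a log2 fold change of -0.33 at an edgeR adjusted p of 0.103. Iars was at 107 and 118 CPM in shControl and at 75.1 and 97.3 CPM in shLmna, with a log2 fold change of -0.38 at an edgeR adjusted p of 0.131. Neither pair of groups overlapped. For Iars, 21.6% of the 31-base words of the counted end recur in other annotated transcripts, Gm4849 among them, so its counts are uncertain.

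Gars, the glycyl enzyme and the most abundant member, was at 580 and 588 CPM in shControl and at 672 and 740 CPM in shLmna, a log2 fold change of 0.27 with an edgeR adjusted p of 0.147. Lars (leucyl) and Qars (glutaminyl) had log2 fold changes of 0.33 and 0.19, again with groups that did not overlap. The other cytosolic genes were Aars (alanyl), Dars (aspartyl), Eprs (glutamyl and prolyl), Kars (lysyl), Nars (asparaginyl), Rars (arginyl), Vars (valyl) and Wars (tryptophanyl), whose values lay between -0.06 and 0.13. Kars and Dars varied most between the control libraries, with 454 and 315 CPM for Kars and 129 and 189 CPM for Dars, and both shLmna libraries lay between these limits for each gene.

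Of the 19 tested cytosolic genes, 2 rose (10.5%, where 5.48% of all tested genes were higher) and 17 did not pass the test. The fitted change was positive in 14 and negative in 5, against 4568 and 4582 of all tested genes, and the median log2 fold change was 0.09. Summed levels of the 20 genes were 3768 and 3520 CPM in shControl and 4023 and 4050.3 CPM in shLmna. Both shLmna sums were above both control sums, and the gap between the nearest sums of the groups was about as wide as the gap between the controls. All 38 genes together took 0.472% and 0.446% of all counts in shControl and 0.514% and 0.514% in shLmna.

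Classes and complex membership were compared as a description. The median log2 fold change was 0.19 in the 9 tested cytosolic enzymes of class I and 0.05 in the 9 of class II, with Eprs holding a domain of each class and left out of both. In mitochondria the medians were -0.01 for 7 class I and 0.06 for 6 class II enzymes. The 10 members that belong to the multi-synthetase complex, Aimp1 and Aimp2 included, had a median of 0.11, with Mars as the member that rose, and the 11 tested cytosolic genes outside it had a median of 0.07, with Farsb as the member that rose. Aimp1, a scaffold protein whose secreted form acts as a cytokine, was at 303 and 332 CPM in shControl and at 384 and 376 CPM in shLmna, with a log2 fold change of 0.26 at an edgeR adjusted p of 0.185. Aimp2 was at 172 and 177 CPM in shControl and at 170.5 and 170.8 CPM in shLmna, and 47.2% of the 31-base words of its counted end recur in Eif2ak1 on the opposite strand.

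For 13 combinations of genes for the same amino acid, both the cytosolic and the mitochondrial gene were tested. The cytosolic log2 fold change was the higher value in 8 and the lower in 5. In 8 combinations the values differed by less than 0.5. A difference over 1 was seen for tyrosine and methionine. For tyrosine the log2 ratio of Yars2 to Yars was -0.24 and -0.19 in shControl and -2.09 and -2.04 in shLmna, close together within each group, with a difference of -1.85 between the means. For methionine the log2 ratio of Mars2 to Mars was -3.65 and -2.88 in shControl and -5.83 and -4.26 in shLmna, with a wide spread in both groups. Histidine and isoleucine had the opposite order, with the mitochondrial value above the cytosolic one by 0.65 and 0.66. These differences between genes were not tested.

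**Figure D3:**
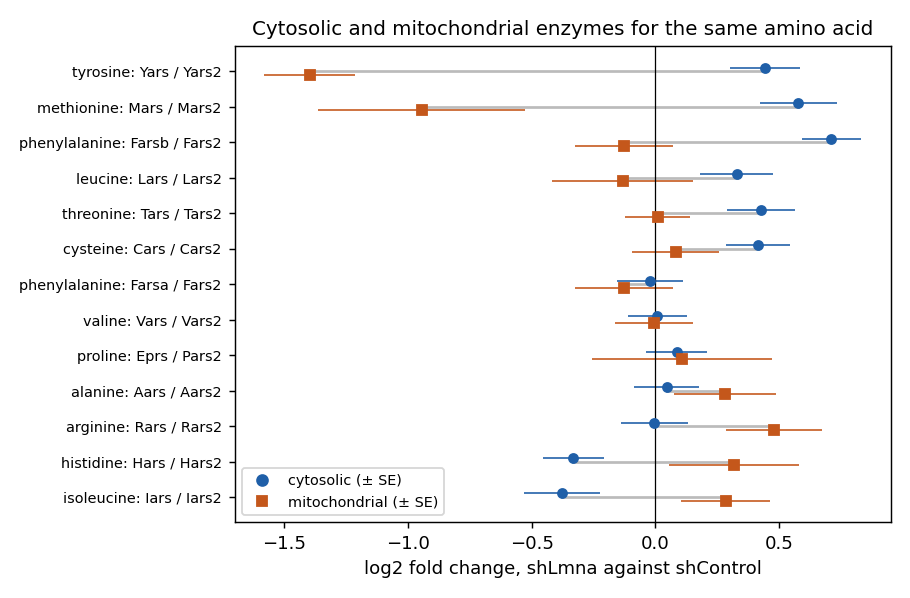
Log2 fold changes of the cytosolic (blue circles) and mitochondrial (orange squares) gene for the same amino acid, with bars of 1 SE and the difference as a grey line. Fars2 appears beside both subunits of the cytosolic phenylalanyl enzyme. Tyrosine (0.44 against -1.40) and methionine (0.58 against -0.94) are farthest apart.

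The 4 untested genes had few counts in every library. Sars, the seryl enzyme of the cytosol, was counted 3 and 6 times in shControl, 2 and 3 times in shLmna. No other cytosolic enzyme charges serine tRNAs, and every other cytosolic synthetase had over 100 counts in each library. The cause of the low counts of Sars was not tested. Ears2 (mitochondrial glutamyl) had 5, 3, 4 and 9 counts, Nars2 (mitochondrial asparaginyl) 3, 1, 2 and 3, and Wars2 (mitochondrial tryptophanyl) 0, 0, 1 and 2, in the order shControl 1, shControl 2, shLmna 1 and shLmna 2. A difference in these genes was not detectable at this depth.

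In this series, transcripts with few G and C bases at their counted end were called more often. Among tested genes at or below 42% GC, 19.9% were lower and 8.61% higher, against 6.04% and 4.30% of those above. Tested members had a median GC content of 49.9% (range 35.6% to 61.1%), compared with 47.4% for all tested genes. The 4 members at or below 42% were Dars, Mars2, Hars2 and Nars, with log2 fold changes of 0.13, -0.94, 0.32 and 0.01. Yars2, Farsb and Mars lie above it, at 43.5%, 47.3% and 51.7%. With a correction for GC content in each library, Yars2 changed by -1.48, Farsb by 0.65 and Mars by 0.58 on the log2 scale, and each passed the edgeR test again. The part of base composition in the remaining differences was not tested.

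**Figure D4:**
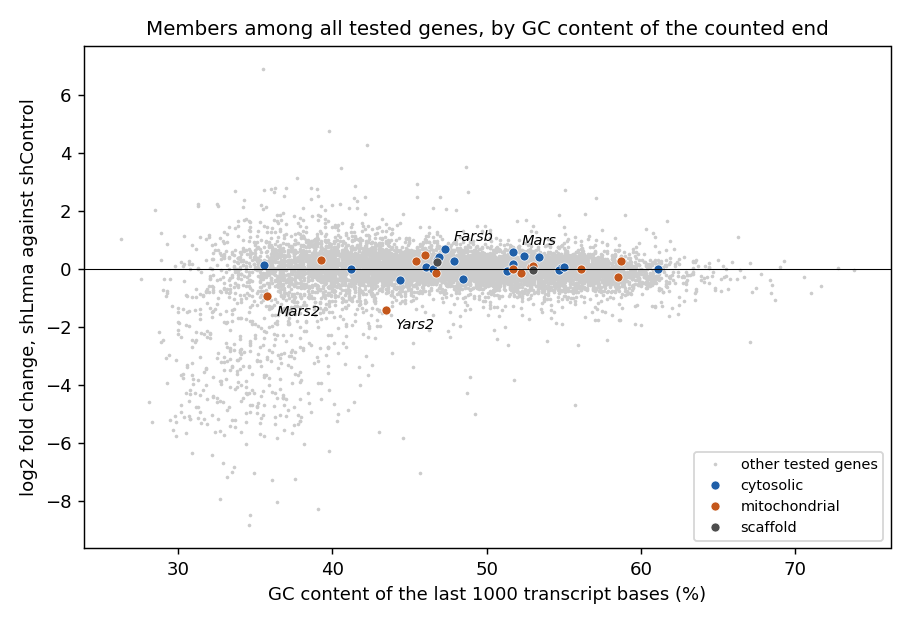
Log2 fold change against the GC content of the last 1000 transcript bases for all tested genes with a known end (grey) and for the members (coloured by compartment). The low values gather below 42% GC, where 19.9% of tested genes were lower, while most members lie between 45% and 60% and near 0.

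Genes that act beside the synthetases were given from a list of 20 tRNA charging partners, of which 19 were tested. Of these, 2 fell (10.5%, where 9.74% of all tested genes were lower) and 17 passed the test in neither direction, with a median log2 fold change of 0.13. Xpot encodes exportin-t, which carries tRNAs from the nucleus to the cytoplasm. It was counted 67 and 81 times in shControl, 3 and 4 times in shLmna, so the groups were far apart with almost no reads left in shLmna. The shLmna level was 5.31% of the shControl level, with an exact binomial 95% interval of 2.10% to 11.2% that covers counting error only, and the edgeR adjusted p was 5.96e-05. Trnt1, which adds the CCA end that every tRNA needs before charging, was counted 108 and 159 times in shControl, 30 and 47 times in shLmna. The groups did not overlap, and the log2 fold change was -1.62 (SE 0.231) with an edgeR adjusted p of 0.00144. Both passed the test under all 12 alternatives tried, with log2 fold changes from -4.35 to -0.59 for Xpot and from -1.77 to -0.40 for Trnt1. The smallest changes came from limma on the batch-corrected values, where the change of Lmna was also reduced, to -1.54. The counted ends of Xpot and Trnt1 hold 39.8% and 40.5% GC, in the range where calls were frequent. The fits with a GC correction are among the 12 alternatives.

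Some partners were chosen for mention after their values were seen. Mitochondrial glutaminyl-tRNA is made by an amidotransferase rather than by a synthetase of its own, and its subunits Gatb, Gatc and Qrsl1 had log2 fold changes of 0.49, 0.14 and 0.37, with edgeR adjusted p-values of 0.117, 0.645 and 0.185. Eef1e1, the third scaffold protein of the complex, was at 113 and 108 CPM in shControl and at 46.3 and 102 CPM in shLmna, so that its log2 fold change of -0.55 (edgeR adjusted p 0.210) came mostly from shLmna 1.

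The amino acid response, through which cells raise synthetase and transporter genes when charging falls short, was examined with a list of 30 genes, of which 26 were tested. Of these, 2 rose (7.69%, where 5.48% of all tested genes were higher) and 24 passed the test in neither direction, with a median log2 fold change of 0.29. The fitted change was positive in 16 and negative in 10. Slc7a11, the cystine and glutamate exchanger, was counted 0 and 5 times in shControl, 15 and 17 times in shLmna. Reads were few, and its edgeR adjusted p of 0.0348 rose to between 0.0525 and 0.215 when shControl 1 or either shLmna library was left out and to 0.124 with DESeq2. Aldh1l2, a mitochondrial folate enzyme, was counted 40 and 49 times in shControl, 60 and 86 times in shLmna, with a log2 fold change of 0.88 (SE 0.225) at an edgeR adjusted p of 0.0271. That call too was lost with DESeq2 (adjusted p 0.213) and, in edgeR, without shLmna 1 (0.115) or shLmna 2 (0.122). The counted ends of Slc7a11 and Aldh1l2 hold 38.6% and 37.5% GC, and with the GC correction their log2 fold changes were 2.78 and 0.90, again past the edgeR test. Atf4, the central factor of this response at the level of translation, was at 479 and 458 CPM in shControl and at 599.6 and 550.4 CPM in shLmna, with a log2 fold change of 0.30 at an edgeR adjusted p of 0.128. Asns, the asparagine synthetase gene often used as its readout, had a log2 fold change of 0.39 with an edgeR adjusted p of 0.0839. On the other side, Slc38a2, an amino acid transporter, was at -0.47 (edgeR adjusted p 0.0847). Ppp1r15a, which directs dephosphorylation of eIF2 alpha, was at -0.50 (edgeR adjusted p 0.201). These were the lowest values of the tested list. Positive values went further, to 0.64 in Chac1 (edgeR adjusted p 0.108), 0.88 in Aldh1l2 and 2.81 in Slc7a11. Atf4, Asns, Chac1, Slc38a2 and Ppp1r15a were chosen for mention after their values were seen.

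The 3 calls among the synthetases differed in how they held under 12 other ways of processing. In 1 of them, limma on the batch-corrected values, the change of Lmna was also reduced, to -1.54 from -2.61 in the edgeR fit. Yars2 was lower and past the test in all 12, with log2 fold changes from -1.48 to -0.41, the smallest in the batch-corrected values. Farsb was higher in all 12 and past the test in 11. Mars was higher in all 12 and past the test in 8. Of the 31 members outside the threshold, 10 passed it under at least 1 alternative and 21 under none. All 10 passed in limma on the batch-corrected values, which called 17.2% of all tested genes higher and 19.1% lower. Gars, Hars, Mars2, Rars2, Sars2 and Aimp1 passed in that fit only. The matching share over all tested genes was not computed.

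**Figure D5:**
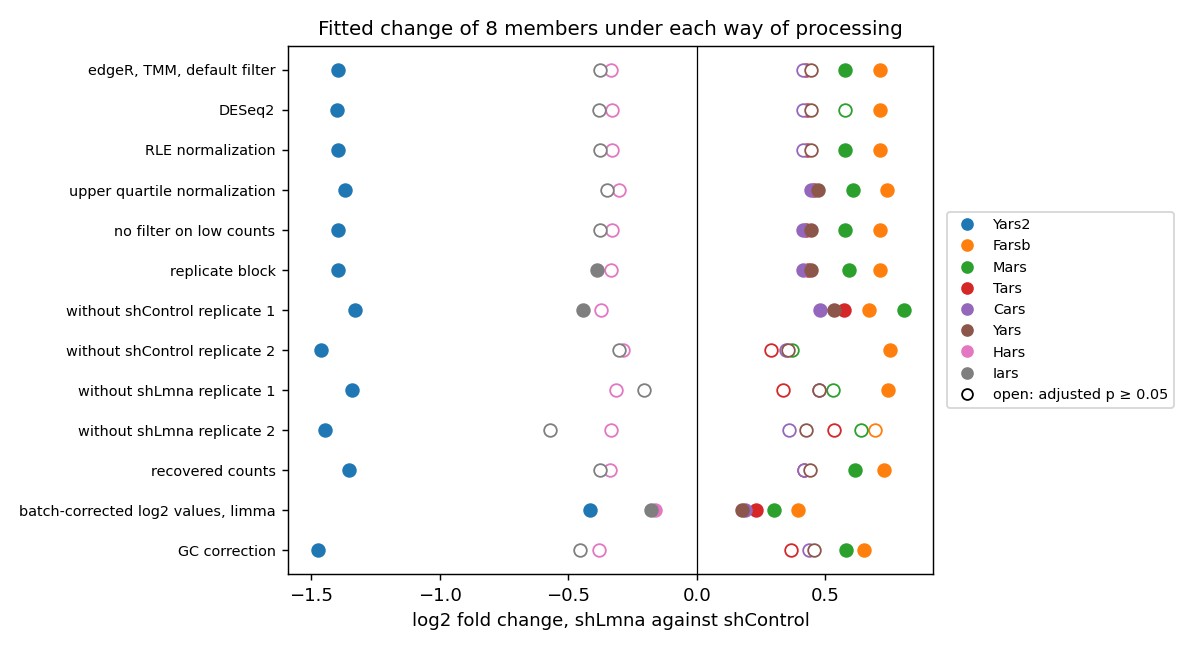
Log2 fold change of Yars2, Farsb, Mars, Tars, Cars, Yars, Hars and Iars in the edgeR fit and under each of the 12 alternatives, with filled points for an adjusted p under 0.05 in that fit. Yars2 is filled throughout, Farsb is open only without shLmna replicate 2, and Mars is open under 4 alternatives.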

How the data were processed

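Deposited counts were whole-number read counts per gene symbol, made by the authors with the UTAP pipeline: trimming with cutadapt, alignment with STAR 2.4.2a to mm10, and HTSeq counting over the last 1000 bases of RefSeq genes and 100 bases downstream, with molecular identifiers used to mark duplicates. The deposited size-factor scaled values (a signal, counts divided by a DESeq2 factor for each library) gave whole reads again for 100% of values (within 0.02) and served as an alternative. The deposited batch-corrected log2 values were made by the authors with ComBat, with batches not named, and were also an alternative. The deposited p-values, the authors' own comparison, were not used.

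Counts of the 4 libraries were tested in edgeR 4.0.16 (R 4.3.3) with TMM scaling, the default filter on low counts, group as the only term, the quasi-likelihood F test (two-sided) and Benjamini-Hochberg adjustment over 9150 genes. CPM values are TMM-scaled. SEs were derived from the F statistic. Alternatives used DESeq2 1.42.0, limma 3.58.1, RLE or upper quartile scaling, no filter, a replicate block, recovered counts, GC offsets (smoother span 0.3) and leaving out each library. GC content and shared 31-base words were taken from GENCODE M21 transcript ends, with GC known for 96.1% of tested genes. Gene positions come from GENCODE M21 and promoters from RefSeq, both on GRCm38. The fit was tested on simulated counts.

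Members and gene lists were chosen with earlier results of these data known. All members are accounted for. From the partner and amino acid response lists, genes with an adjusted p under 0.05 are named, and others named were chosen after their values were seen. Intervals cover counting error or library spread only.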

Additional observations from a re-analysis of the deposited data

How the results depend on the processing

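Omitting each library in turn gave 1 to 2 lower and 0 to 5 higher members in edgeR. The 0 arose without shLmna 2, where 4 members were higher at an unadjusted p under 0.05 and Farsb and Mars had edgeR adjusted p-values of 0.0573 and 0.160. The highest counts arose without shControl 1, where Cars, Tars and Yars were also higher and Iars was also lower. DESeq2 gave 1 higher member, upper quartile scaling 4, no filter on low counts 5, and limma on the batch-corrected values 8 higher and 5 lower, against 2 and 1 as reported. The shares of all tested genes moved too: 17.2% were higher and 19.1% lower in limma, 8.04% and 13.8% without shControl 1, 0.935% and 4.35% without shLmna 2, and 2.58% and 6.63% with DESeq2. The labels give each group replicates 1 and 2, but the deviations of same-numbered libraries had a correlation of 0.0129 over 2 pairs, so the numbers were not taken to pair the libraries. With a replicate block 5 members were higher and 2 lower, and 9.31% and 13.3% of all tested genes. The median of the cytosolic genes rose from 0.09 to 0.17 with the GC correction and lay between 0.070 and 0.17 with a library omitted. That of the mitochondrial genes lay between -0.04 and 0.16, so its sign depended on the library omitted.

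Signs of members near 0 also turned. Farsa was at 0.0080 with upper quartile scaling, 0.013 with recovered counts, 0.0059 in limma and 0.015 with the GC correction. Rars was at 0.026 with upper quartile scaling, 0.00099 with the replicate block, 0.021 with recovered counts and 0.011 in limma. Vars2 was at 0.025 with upper quartile scaling, and Nars at -0.062 with the GC correction. With a library omitted, the range was -0.061 to 0.16 for Aars, -0.040 to 0.21 for Cars2, -0.11 to 0.43 for Dars, -0.15 to 0.12 for Farsa, -0.013 to 0.64 for Hars2, -0.30 to 0.23 for Kars, -0.42 to 0.23 for Lars2, -0.038 to 0.064 for Nars, -0.14 to 0.39 for Pars2, -0.13 to 0.13 for Rars, -0.020 to 0.041 for Tars2, -0.046 to 0.081 for Vars, -0.11 to 0.12 for Vars2 and -0.0084 to 0.16 for Wars. The cause of these changes was not tested. The other 20 tested members kept their direction under all 12 alternatives. With 2 libraries a group and 2494880 to 3808843 counts each, the 4 members with 0 to 9 counts could not be compared.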
